A study of Homo sapiens with 6 samples.

Results

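The G1/S and DNA replication genes were 39 protein-coding genes chosen by name, of 24154 genes in the deposited count table. They comprised 3 E2F transcription factors, 6 G1 cyclins and their kinases, 12 genes of origin licensing and the replicative helicase, 9 genes of the polymerases, clamp, clamp loader and lagging strand, 4 genes of deoxynucleotide supply and 5 genes of chromatin assembly, histone mRNA and base repair. Each symbol was found in 1 row of the table, and 39 of 39 passed the low-count filter. The siCPT2 group (n = 3 libraries) was HCT116, a human colorectal carcinoma cell line, given an siRNA against CPT2 for 48 h while growing logarithmically. The NC group (n = 3 libraries) was the same line given a negative control siRNA for 48 h. No other genotype or agent is named for either group, and the siRNA sequences were not used here. Nothing in the labels ties a replicate to its own culture, and p-values therefore cover the spread between these libraries, which may be technical.

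In G1, D-type cyclins with CDK4, and then cyclin E with CDK2, phosphorylate the retinoblastoma protein, which releases activator E2F factors to transcribe the genes of DNA synthesis. Replication origins are licensed when CDC6 and CDT1 load the MCM2 to MCM7 ring onto DNA, and CDC45 and the GINS complex turn the ring into an active helicase that polymerases follow. These genes are widely read as markers of dividing cells, and carcinoma lines in growth transcribe them at a high level.

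Many promoters of the members hold an E2F element, which is shown here as a description. The members were chosen by name and not by this element, but as G1/S genes they were likely to hold it. RefSeq (GRCh38.p14) promoters, 250 bases before to 50 after a transcription start, were matched by symbol for 33 of the 39 members (46 promoters). E2F8, CCND1, CCNE2, CDK2, MCM4 and MCM5 had no entry. An exact match to TTTCCCGC, TTTGGCGC, TTTCGCGC or TTTGCCGC on either strand was present for 18 of 33 members (54.5%), against 1090 of all 27305 genes with a promoter in the table (3.99%). Matches to these 4 letter strings can overlap each other. CCAAT, the box bound by NF-Y, was present on either strand for 19 of 33 members (57.6%) and for 39.7% of all genes. The median GC content of the promoters was 67.3% for members and 58.3% for all genes. Windows of 30 bases around a match are given below on the strand of the gene, 5′ to 3′, with the matched bases in capitals. They were taken from members that the results turn on and from the E2F1 gene itself. The E2F1 window holds a match on each strand, and in the MCM2 and MCM6 windows matches on both strands overlap.
E2F1 (chr20:33686394-33686423, minus): ctttcGCGGCAAAaaggaTTTGGCGCgtaa
CDC6 (chr17:40287875-40287904, plus): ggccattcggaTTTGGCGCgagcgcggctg
CDT1 (chr16:88803743-88803772, plus): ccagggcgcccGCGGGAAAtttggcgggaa
MCM2 (chr3:127598404-127598433, plus): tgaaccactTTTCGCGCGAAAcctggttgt
MCM6 (chr2:135876575-135876604, minus): ggctttgcaTTTGGCGCGAAAtccctttcc
GINS1 (chr20:25407667-25407696, plus): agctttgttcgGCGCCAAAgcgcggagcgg
GINS2 (chr16:85688967-85688996, minus): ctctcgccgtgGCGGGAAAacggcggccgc
POLA1 (chrX:24693770-24693799, plus): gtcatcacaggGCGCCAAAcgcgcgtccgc
PCNA (chr20:5126663-5126692, minus): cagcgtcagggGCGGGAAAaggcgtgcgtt

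The libraries held 28353790 to 29449380 counts, and a member had between 62 and 16464 counts in a library. CPT2, which encodes carnitine palmitoyltransferase 2 of the inner mitochondrial membrane, had 19.4, 21.3 and 19 CPM (read counts scaled to library size) in siCPT2 replicates 1, 2 and 3, against 23.6, 28.5 and 29.1 CPM in NC replicates 1, 2 and 3. The log2 fold change was -0.44 (SE 0.17), with an adjusted p of 0.338 (edgeR quasi-likelihood test, Benjamini-Hochberg). It was 0.029 once each library was corrected for transcript GC content and length, and -0.25 with that correction but without siCPT2 replicate 1. siCPT2 replicate 1 stood apart on the first principal component (53.2% of the variance), at -76.6 against -16 to 44.6 in the other libraries. Transcripts of mitochondrial DNA took 8.99% to 17.0% of counts in siCPT2 libraries and 10.002% to 10.8% in NC libraries. Of 8 intestinal epithelial markers, KRT8 and KRT18 were at 609 to 1432 CPM, but EPCAM was at 2.68 to 4.31 CPM, CDH1 at 1.03 to 2.9 CPM, VIL1 and KRT20 were at or near 0 and CDX2 was at 0 in all libraries. HCT116 is known as an epithelial line that carries EPCAM and E-cadherin (CDH1), so these low levels go against the labelled cell type. The summed epithelial markers ranged over 1716 to 2658 CPM in siCPT2 and 1552 to 1812 CPM in NC libraries. Fibroblast markers (6, mostly COL1A1) summed to 79.6 to 132 CPM in siCPT2 and 61.4 to 80.6 CPM in NC libraries, with LUM at 0. Leukocyte markers (5, mostly CD68) summed to 29.5 to 31.7 CPM in siCPT2 and 21.3 to 23 CPM in NC libraries, with LYZ at 0 and PTPRC near 0. Endothelial markers (4, mostly CDH5) summed to 53.6 to 70.3 CPM in siCPT2 and 72.8 to 89.3 CPM in NC libraries, with KDR near 0. The part of these shifts in the values of the members was not tested.

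The comparison of siCPT2 with NC asks how the G1/S and replication genes stood after CPT2 was targeted. No member passed an adjusted p of 0.05 in edgeR, and the members were spread evenly around no change, with 19 higher and 20 lower in siCPT2. Their median log2 fold change was -0.026, against 0.0083 over the 15302 genes tested. GINS2, CDT1 and TK1 had the smallest p-values and were higher in siCPT2 by 0.48 to 0.54 on the log2 scale. At the other end stood POLA1 at -0.50, CCNE2 at -0.49 and MCM6 at -0.42. In bulk RNA, fewer cells in S phase and less RNA per cell cannot be told apart.

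Calls across the genome were few: 2 of 15302 genes passed (0.0131%), and the 39 members held 0 of them. DESeq2 and limma-voom also called 0 members. At an unadjusted p under 0.05, 3 members were higher (7.69%) and 0 lower, against 9.18% of all genes higher and 5.29% lower. DESeq2 had 3 members under that p (7.69%, against 18.3% of all genes) and limma-voom had 2 (5.13%, against 15.2%). The edgeR count of 3 was 14 without siCPT2 replicate 2 (35.9%, against 35.9% of all genes), 1 without NC replicate 3 (2.56%, against 7.83%) and 0 without NC replicate 2 (against 3.23%). The CPM of the groups did not overlap for 5 members higher in siCPT2 (12.8%), CCND3, CDT1, CDC45, GINS2 and CHAF1A. The same held for 6 members lower in siCPT2 (15.4%), CCND1, CDC6, MCM2, MCM6, GINS1 and POLA1. Over all genes these shares were 12.2% and 12.3%, so the members stood near the background on these counts. Adjusted p-values of members ran from 0.338 to 0.989 (edgeR). In the authors' deposited table, 0 of 39 members were called up or down, where it called 378 genes up and 188 down of 13635 with a p-value (4.15%), and GINS2, CDT1 and TK1 were the 3 with an unadjusted p under 0.05.

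The data bounded these changes. The median SE of a log2 fold change was 0.17, between 0.13 for CCND3 and 0.41 for CCNE2. For 35 of 39 members the 95% interval left out a rise and a fall by 1 on the log2 scale, and it reached that size for E2F8, CCNE2, CDT1 and POLA1. The coefficient of variation of a member over libraries had a median of 18.5% in siCPT2 and 6.62% in NC, and was larger in siCPT2 for 37 of 39 members. No such values over all genes are given here, so the wider spread is not shown to be particular to the members. siCPT2 replicate 1 held the lowest CPM of 20 members (51.3%, against 37.7% of all genes) and the highest of 12 (30.8%, against 34.6% of all genes). The sample quality weights of limma-voom were 0.192, 0.404 and 3.71 for siCPT2 replicates 1, 2 and 3. For NC replicates 1, 2 and 3 they were 1.61, 0.815 and 2.66. In that fit, which had no GC and length correction, 6 members were called higher: CDT1, GINS2, TK1, MCM5, CDC45 and POLD1. That is 15.4% of the members, and the same fit called 16.5% of all genes (1412 higher and 1113 lower). With siCPT2 replicate 1 left out, edgeR called 0 members, and 1 gene higher and 2 lower of 15608.

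**Figure D1:**
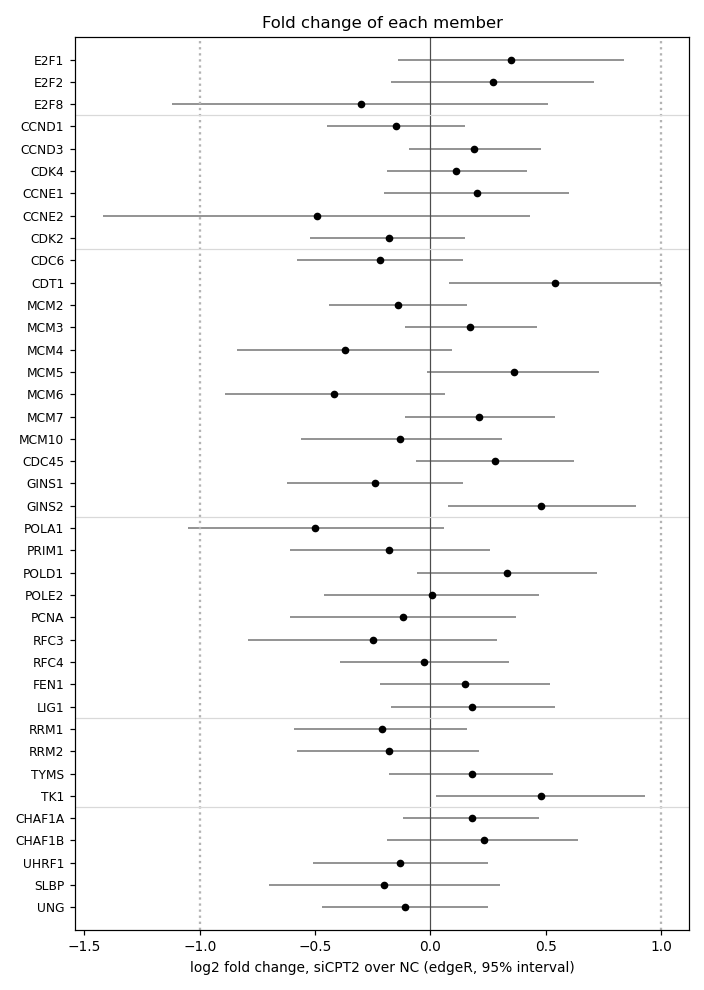
Log2 fold change of each of the 39 members, siCPT2 over NC, with the 95% interval from edgeR (x axis, log2 units; dotted lines at -1 and 1; members grouped by role from the top, E2F factors to chromatin assembly). 3 intervals leave out 0, those of CDT1, GINS2 and TK1, and 4 reach a change by 1.

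**Figure D2:**
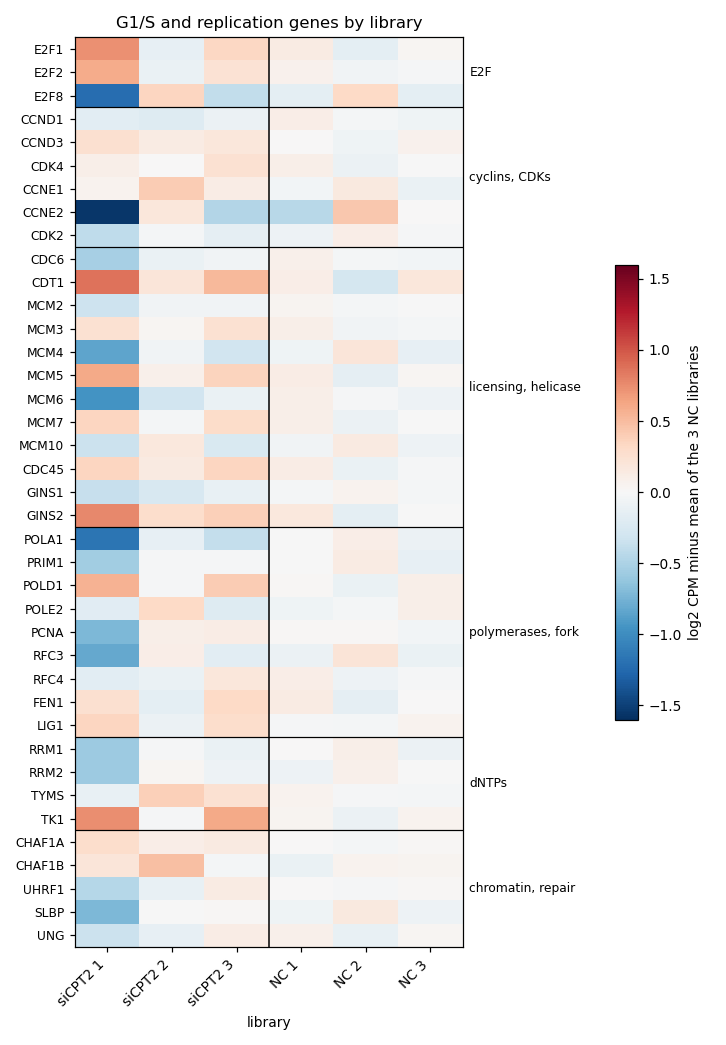
Level of each member in each library, as log2 CPM minus the mean of the 3 NC libraries (colour; siCPT2 libraries left of the line, NC libraries right of it; members by role). siCPT2 replicate 1 holds the strongest colours, the darkest of them for E2F8, CCNE2 and POLA1.

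Of the E2F factors, both activators were higher and the repressor lower in siCPT2 as counted, by amounts that depended on the fit. E2F1, an activator of the G1/S genes (chr20:33675683-33686404, minus strand, GRCh38), had 126, 69.6 and 95.5 CPM in siCPT2 replicates 1, 2 and 3, against 83, 67.9 and 77.8 CPM in NC replicates 1, 2 and 3. siCPT2 replicate 2 lay inside the NC range and the other siCPT2 libraries above it. The log2 fold change was 0.35 (SE 0.22, adjusted p 0.39, edgeR), against -0.09 with the GC and length correction and 0.10 without siCPT2 replicate 1. E2F2, another activator, had 73.7, 45.3 and 57 CPM in siCPT2, against 51.2, 46.7 and 48.1 CPM in NC libraries. Here siCPT2 replicate 2 was the lowest of the 6 libraries, and the log2 fold change was 0.27 (SE 0.19, adjusted p 0.439, edgeR), against 0.12 with the correction and 0.062 without siCPT2 replicate 1. E2F8, an atypical E2F that represses these genes later in the cycle, had 3.67, 10.8 and 6.48 CPM in siCPT2, against 7.63, 10.6 and 7.63 CPM in NC libraries, so the siCPT2 libraries spanned the NC range on both sides. Its log2 fold change of -0.30 (SE 0.36) was -0.18 with the correction and -0.0074 without siCPT2 replicate 1. Per length, E2F1 stood at 34.7 ± 7.79 FPKM in siCPT2 and 30.1 ± 2.56 FPKM in NC (SD, n = 3 each), and E2F8 at 1.91 ± 1.11 FPKM in siCPT2 and 2.49 ± 0.64 FPKM in NC, the lowest level among members in NC.

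The 6 G1 cyclins and kinases had log2 fold changes of -0.49 to 0.20, with a median of -0.02. CCND3, a D-type cyclin partner of CDK4 and CDK6 (chr6:41934933-42050357, minus strand, GRCh38), had 155, 142 and 146 CPM in siCPT2, against 130.1, 123 and 135 CPM in NC libraries. The siCPT2 libraries were the higher without overlap, with a log2 fold change of 0.19 (SE 0.13, adjusted p 0.404, edgeR) that became -0.042 with the GC and length correction. CCND1, the D-type cyclin induced by Wnt and growth factor signals, went the other way, at 98.6, 95.8 and 104 CPM in siCPT2 against 119, 108 and 105 CPM in NC libraries (log2 fold change -0.15, SE 0.13). CCNE1 and CCNE2, the E-type cyclins that activate CDK2, differed in sign, with log2 fold changes of 0.20 (SE 0.18) and -0.49 (SE 0.41). With the GC and length correction these were 0.028 and -0.19, and without siCPT2 replicate 1 they were 0.26 and -0.16. CCNE1 was at 30.1 ± 4.1 CPM in siCPT2 and 26.2 ± 2.54 CPM in NC, and CCNE2 at 5.29 ± 2.86 CPM in siCPT2 and 7.45 ± 2.25 CPM in NC (SD, n = 3 each). Of the kinases, CDK4 stood at a log2 fold change of 0.11 (SE 0.14) as counted and -0.08 with the correction. CDK2 was at -0.18 (SE 0.15) as counted, -0.26 (SE 0.13) with the correction and -0.091 without siCPT2 replicate 1.

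The loading factors were CDT1 and CDC6. CDT1 (chr16:88803213-88809258, plus strand, GRCh38), which brings the MCM ring to the origin, had 214, 134 and 167 CPM in siCPT2 replicates 1, 2 and 3, against 126, 95.9 and 132 CPM in NC replicates 1, 2 and 3. The groups did not overlap, by a margin of 134 to 132 CPM at the closest. Its log2 fold change was 0.54 (SE 0.20, adjusted p 0.338, edgeR), the highest of the members, and 0.11 (SE 0.093) with the GC and length correction. CDC6 (chr17:40287633-40304657, plus strand), the ATPase that works with CDT1, had 108, 145 and 150.3 CPM in siCPT2, against 165, 153 and 151 CPM in NC libraries. All 3 siCPT2 libraries lay below the NC libraries, 2 of them closely, with a log2 fold change of -0.22 (SE 0.16, adjusted p 0.441, edgeR). That value was 0.0071 with the correction and -0.094 without siCPT2 replicate 1, where CDT1 was at 0.34.

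The 6 subunits of the MCM2 to MCM7 ring, which is built from 1 copy of each, were 3 higher and 3 lower in siCPT2 as counted. MCM5 (chr22:35400063-35425430, plus strand, GRCh38) had 323, 224 and 271 CPM in siCPT2, against 229, 191 and 217 CPM in NC libraries. Of the siCPT2 libraries, replicate 2 lay within the NC range and the others above it, and the log2 fold change was 0.36 (SE 0.16, adjusted p 0.338, edgeR). MCM7 had 581, 449 and 564 CPM in siCPT2, against 491, 430.1 and 456 CPM in NC libraries, with siCPT2 replicate 2 again inside the NC range (log2 fold change 0.21, SE 0.14). MCM3 had 442, 383 and 441 CPM in siCPT2, against 397, 358 and 367 CPM in NC libraries, in the same pattern (log2 fold change 0.17, SE 0.13). On the lower side, MCM6 (chr2:135839626-135876426, minus strand, GRCh38) had 88.8, 139.6 and 160.4 CPM in siCPT2, against 185, 171 and 163 CPM in NC libraries. Its groups did not overlap, with siCPT2 replicate 1 far below the other libraries, and the log2 fold change was -0.42 (SE 0.21, adjusted p 0.342, edgeR). MCM4 had 131, 226 and 191 CPM in siCPT2, against 225, 269 and 215 CPM in NC libraries. The groups overlapped through siCPT2 replicate 2, and the log2 fold change was -0.37 (SE 0.20, adjusted p 0.357, edgeR). MCM2 had 358, 433 and 433 CPM in siCPT2, against 462, 438 and 448 CPM in NC libraries (log2 fold change -0.14, SE 0.13). With the GC and length correction MCM7 turned to -0.02, so that 2 subunits were higher and 4 lower: MCM5 was at 0.21, MCM3 at 0.13, MCM6 at -0.18, MCM4 at -0.27 and MCM2 at -0.32. Without siCPT2 replicate 1, MCM5 was at 0.21, MCM7 and MCM3 at 0.13, MCM6 at -0.22, MCM4 at -0.19 and MCM2 at -0.061, all as log2 fold changes.

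Per length, the ring subunits differed in level by several fold in both groups. MCM7 stood at 161 ± 17.8 FPKM in siCPT2 and 151 ± 6.96 FPKM in NC, and MCM6 at 31.9 ± 11 FPKM in siCPT2 and 45.7 ± 2.21 FPKM in NC (SD, n = 3 each). In between in NC were MCM3 and MCM2, both at 127 FPKM, then MCM5 at 60.7 ± 5.66 FPKM and MCM4 at 58.1 ± 8.13 FPKM, which did not differ beyond their spread. The FPKM ratio of MCM7, the most abundant subunit, to MCM6, the least, was 8.23, 4.05 and 4.37 in siCPT2 replicates 1, 2 and 3, against 3.31, 3.15 and 3.47 in NC replicates 1, 2 and 3. All 3 siCPT2 ratios were above the NC ratios, and that of replicate 1 was far above the rest. Both genes were picked for their levels, so the ratio is a description. MCM7 has a transcript GC content of 57.59% and MCM6 of 43.12%. With the correction their log2 fold changes were -0.02 and -0.18, closer together than the 0.21 and -0.42 as counted. The correction is built to remove a trend on GC content from each library. The part of GC content in the ratio was not tested.

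The factors that join the ring to form the active helicase included GINS2, the member with the smallest p. GINS2 (chr16:85676198-85690073, minus strand, GRCh38), a GINS subunit, had 89.4, 63.8 and 68.3 CPM in siCPT2, against 59.3, 47.1 and 52.2 CPM in NC libraries. The 3 siCPT2 libraries were above all NC libraries, with a log2 fold change of 0.48 (SE 0.18, adjusted p 0.338, edgeR). Its difference was 0.49 (SE 0.15, adjusted p 0.363, edgeR) with the GC and length correction and 0.31 (SE 0.13, adjusted p 0.496, edgeR) without siCPT2 replicate 1. CDC45, the partner of GINS in the helicase, had 55.8, 48.7 and 55.9 CPM in siCPT2, against 47.6, 41 and 43.5 CPM in NC libraries. It too was separated, closely, and its log2 fold change was 0.28 (SE 0.15, adjusted p 0.354, edgeR). GINS1, another GINS subunit, had 14.5, 15.7 and 17.3 CPM in siCPT2, against 18.4, 19.4 and 18.4 CPM in NC libraries. It was lower in all 3 siCPT2 libraries, with a log2 fold change of -0.24 (SE 0.17, adjusted p 0.426, edgeR) that became 0.048 with the correction. The FPKM ratio of GINS2 to GINS1, subunits of the same complex, was 7.65, 4.93 and 4.88 in siCPT2, against 3.94, 3 and 3.52 in NC libraries. MCM10, which helps to activate the helicase, was at 24.3 ± 4.79 CPM in siCPT2 and 26.6 ± 2.4 CPM in NC (SD, n = 3 each).

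**Figure D3:**
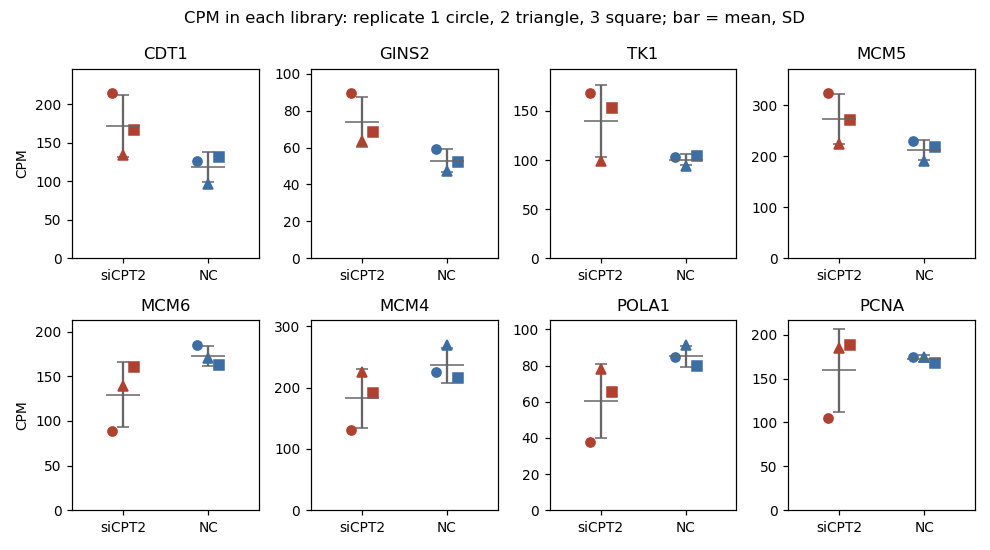
CPM of 8 members in each library (y axis from 0; siCPT2 left, NC right; circle, triangle and square for replicates 1, 2 and 3; bars show mean and SD, n = 3). CDT1 and GINS2 are higher and MCM6 and POLA1 lower in the 3 siCPT2 libraries than in any NC library, while TK1, MCM5, MCM4 and PCNA overlap.

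Among the polymerases, clamp and lagging-strand genes, 4 were higher and 5 lower, with a median log2 fold change of -0.026. POLA1 (chrX:24693919-24996986, plus strand, GRCh38), the catalytic subunit of the polymerase that starts each strand with primase, had 38, 77.9 and 65.5 CPM in siCPT2, against 84.8, 91.3 and 79.7 CPM in NC libraries. The groups were separated, narrowly for siCPT2 replicate 2, and replicate 1 had less than any other library by a wide margin. The log2 fold change was -0.50 (SE 0.24, adjusted p 0.339, edgeR), which moved to -0.26 (SE 0.13, adjusted p 0.507, edgeR) without siCPT2 replicate 1 and to -0.19 (SE 0.12) with the GC and length correction. POLD1, the catalytic subunit of polymerase delta, had 164, 110.4 and 148 CPM in siCPT2, against 113, 104 and 119 CPM in NC libraries. siCPT2 replicate 2 lay inside the NC range, and the log2 fold change of 0.33 (SE 0.17, adjusted p 0.347, edgeR) became -0.091 with the correction. PCNA, the sliding clamp, had 105, 185 and 188 CPM in siCPT2, against 175, 175 and 168 CPM in NC libraries. For PCNA siCPT2 replicate 1 was the lowest library and the other siCPT2 libraries were the highest, so that the log2 fold change of -0.12 (SE 0.22) became 0.10 (SE 0.10) without replicate 1. The others, PRIM1 of the primase, POLE2 of polymerase epsilon, RFC3 and RFC4 of the clamp loader, the flap nuclease FEN1 and the ligase LIG1, had log2 fold changes between -0.25 (RFC3) and 0.18 (LIG1).

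Of the 4 genes of deoxynucleotide supply, 2 were higher and 2 lower in siCPT2 as counted. TK1 (chr17:78174075-78187233, minus strand, GRCh38), the thymidine salvage kinase, had 168, 98.8 and 153 CPM in siCPT2, against 103, 94.2 and 104 CPM in NC libraries. siCPT2 replicates 1 and 3 were above and replicate 2 inside the NC range. The log2 fold change was 0.48 (SE 0.20, adjusted p 0.338, edgeR) as counted and -0.048 (SE 0.11, adjusted p 0.858, edgeR) with the GC and length correction. TYMS, thymidylate synthase, had a log2 fold change of 0.18 (SE 0.16), and of 0.047 with the correction. Its lowest library was siCPT2 replicate 1, and without that library it was at 0.29 (SE 0.11, adjusted p 0.487, edgeR). RRM1 and RRM2, the subunits of ribonucleotide reductase, had log2 fold changes of -0.21 (SE 0.17) and -0.18 (SE 0.18). RRM1 had the highest level of all members in NC, at 129.6 ± 34.5 FPKM in siCPT2 and 161 ± 10.6 FPKM in NC (SD, n = 3 each). The FPKM ratio of RRM1 to RRM2 was 3.46 ± 0.209 in siCPT2 and 3.45 ± 0.233 in NC (SD, n = 3 each), a difference within the spread.

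Of the 5 genes of chromatin assembly, histone mRNA and base repair, CHAF1A and CHAF1B were higher and UHRF1, SLBP and UNG lower. CHAF1A, the large subunit of the chromatin assembly factor that deposits histones on new DNA, had 118, 105 and 107 CPM in siCPT2, against 97.3, 95.4 and 98.7 CPM in NC libraries. The groups were separate, with a log2 fold change of 0.18 (SE 0.13, adjusted p 0.449, edgeR) that became -0.033 with the correction. CHAF1B, its partner, was at 27.7 ± 4.92 CPM in siCPT2 and 23.7 ± 1.44 CPM in NC (SD, n = 3 each), with a log2 fold change of 0.23 (SE 0.18) as counted and 0.34 (SE 0.14, adjusted p 0.363, edgeR) with the correction. UHRF1, which guides DNA methylation onto new strands, had a log2 fold change of -0.13 (SE 0.17). SLBP, which binds the histone mRNA stem-loop, was at -0.20 (SE 0.22) and UNG, the uracil DNA glycosylase, at -0.11 (SE 0.16). With the correction UHRF1, SLBP and UNG were at -0.19, -0.32 and -0.20. Without siCPT2 replicate 1 they were at -0.00077, -0.0073 and -0.016.

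Base composition divided the higher from the lower members. Over the 39 members, the log2 fold change and the GC content of the longest transcript (36.88% for CCNE2 to 64.97% for POLD1) had a Pearson r of 0.76 and a Spearman rho of 0.74. The members share the 6 libraries and are not independent, so no p is given. Over 13207 tested genes with a GC value, r was 0.62 and rho 0.68. Of the 19 members above the median GC content of 50.72%, 15 were higher and 4 lower, with a median log2 fold change of 0.19. Of the 19 below it, 4 were higher and 15 lower, with a median of -0.18. UNG lay at the median itself. GINS2, at 49.12% GC, stood highest among the members below the median, and MCM2, at 58.14% GC, was lower in siCPT2 although it lay above it.

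The split by GC content was present in siCPT2 replicates 1 and 3 and not in replicate 2. Relative to the mean of the NC libraries, the median log2 CPM of the members above the median GC content was 0.28, -0.019 and 0.24 in siCPT2 replicates 1, 2 and 3, against 0.039, -0.072 and 0.012 in NC replicates 1, 2 and 3. For the members below it, it was -0.55, 0.035 and -0.10 in siCPT2, against -0.0065, 0.058 and -0.046 in NC libraries. NC replicate 2 had the reverse order to a smaller extent. Single libraries set against the NC mean gave r of 0.79, -0.057 and 0.77 over the members in siCPT2, against 0.48, -0.68 and 0.61 in NC libraries. Each NC library is part of the NC mean, so the NC values are tied to each other and are not like quantities to those of siCPT2. Without siCPT2 replicate 1, r over the members was 0.60 and rho 0.62.

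With offsets that remove a smooth trend on transcript GC content and length from each library, r over the members was 0.10 and rho 0.10, as the offsets are built to do. The median log2 fold change was then -0.033 for the members above and -0.067 for those below the median GC content, and 11 of 39 members changed sign. Of the members with an unadjusted p under 0.05, CDT1 was then at 0.11 and TK1 at -0.048, while GINS2 was at 0.49. CHAF1B had the next highest value, 0.34. No member was called with the offsets, and 2 had an unadjusted p under 0.05 (GINS2 and CHAF1B), which is 5.13% of members against 12.9% of all genes.

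**Figure D4:**
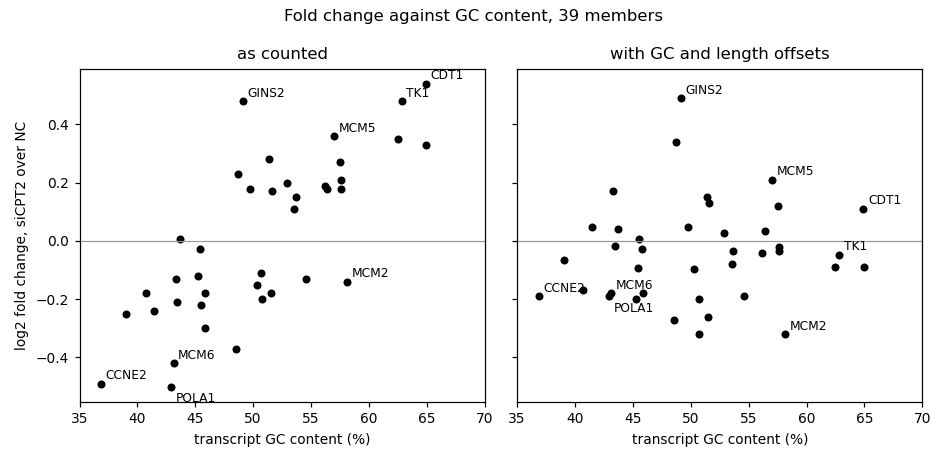
Log2 fold change (siCPT2 over NC) of the 39 members against the GC content of their longest transcript in percent, as counted (left) and with GC and length offsets (right). The points run upward with GC content on the left (r 0.76) and do not on the right (r 0.10), where GINS2 stands highest.

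**Figure D5:**
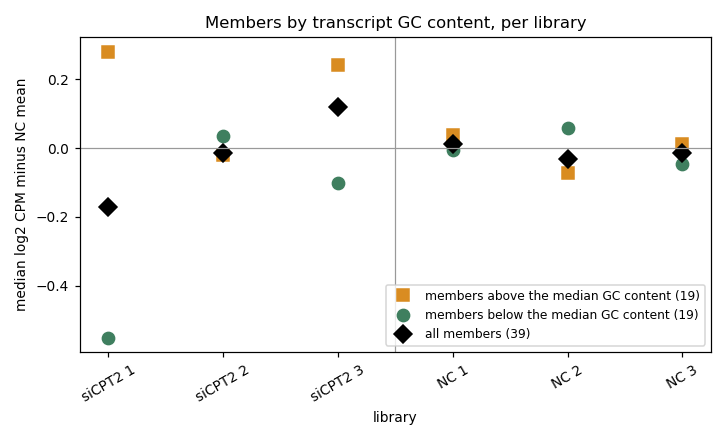
Median log2 CPM minus the mean of the NC libraries, per library (siCPT2 left of the line, NC right), for the 19 members above and the 19 below the median GC content and for all 39. The medians part in siCPT2 replicates 1 and 3 and lie close together in siCPT2 replicate 2.

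Members with and without the E2F element were set side by side. The 18 members with an exact E2F match in a RefSeq promoter had a median log2 fold change of -0.053 with 9 of them higher, and the 15 with an entry but no match had a median of 0.15 with 9 higher. Their median transcript GC content was 50.2% with a match and 51.4% without. No match here means only that those letters are not in the window.

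The wider replication machinery, taken from 5 further lists of 116 genes that hold no member, gave 0 called genes among 115 tested, with 40 higher and 75 lower. Their median log2 fold change was -0.12, and -0.031 with the GC and length offsets. At an unadjusted p under 0.05, 10 were higher (8.7%) and 8 lower (6.96%), against 9.18% and 5.29% of all genes. Most uneven among the 5 lists were 26 other origin and helicase genes, of which 2 were higher and 24 lower. These had a median of -0.27, at a median transcript GC content of 42.1%, and of -0.086 with the offsets and -0.14 without siCPT2 replicate 1. Named for the smallest p-values there were MTBP, a partner in origin firing (log2 fold change -0.83, SE 0.23), MCM8, a helicase of recombination repair (-0.55, SE 0.22), and RECQL4, a helicase of initiation (0.52, SE 0.21).

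In the list of 28 other E2F, RB and CDK regulators, 27 were tested and 10 were higher and 17 lower, with a median of -0.095. CDKN2A, which encodes the CDK4 inhibitor p16 and ARF, had 118, 137 and 122 CPM in siCPT2, against 66.7, 80.8 and 91 CPM in NC libraries. All 3 siCPT2 libraries were above the NC libraries, with a log2 fold change of 0.66 (SE 0.16, adjusted p 0.338, edgeR). The same lack of overlap in this direction held for 12.2% of all genes, and CDKN2A was named for its small p-value. MYBL2, a cell cycle transcription factor, had a log2 fold change of 0.49 (SE 0.16), and E2F7, the partner of E2F8 among atypical E2Fs, of -0.65 (SE 0.30). Of 27 other polymerase, clamp and fork genes, 14 were higher and 13 lower, with a median of 0.039. The named genes were POLD2 of polymerase delta (0.50, SE 0.16), CHTF18 of an alternative clamp loader (0.77, SE 0.28) and RFC1, the large clamp loader subunit (-0.53, SE 0.20). Of 17 other deoxynucleotide genes, 8 were higher and 9 lower, with a median of -0.045. NME1, a nucleoside diphosphate kinase, was at 0.47 (SE 0.17), RRM2B, the p53-induced reductase subunit, at -0.80 (SE 0.35) and DTYMK, thymidylate kinase, at 0.52 (SE 0.26), all as log2 fold changes. Of 18 other chromatin assembly and maintenance genes, 6 were higher and 12 lower, with a median of -0.20. Log2 fold changes there were -0.68 (SE 0.19) for the deubiquitinase USP37, 0.43 (SE 0.14) for the elongation factor PAF1 and -0.63 (SE 0.28) for the bromodomain ATPase ATAD2.

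Genes of the next cell cycle phase stood much like the members. Of 30 G2/M genes, 0 were called, 13 were higher and 17 lower, and the median log2 fold change was -0.051, or 0.02 with the offsets. The named genes were the mitotic kinases PLK1 (0.31, SE 0.13) and AURKB (0.40, SE 0.21) and the transcription factor FOXM1 (0.31, SE 0.16). A list of transcripts that move with RNA quality, 9 tested of 12, held 1 higher and 8 lower gene, with a median of -0.38 at a median transcript GC content of 37.7%. That median was -0.023 with the offsets and -0.23 without siCPT2 replicate 1. Its named genes were OGT (-0.51, SE 0.19), NKTR (-0.56, SE 0.23) and SON (-0.50, SE 0.22). The part of RNA quality in the values of the members was not tested. Over these 7 lists, adjusted p-values of the named genes ran from 0.338 to 0.35 (edgeR).

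Some members share exon bases with another gene of the table, and their values are uncertain because the sources used here state no strand setting for the counting. At least 10% of exon bases were shared for CDK4 with TSPAN31 (43.2%, opposite strand), TYMS with ENOSF1 (39.1%, opposite), CCNE2 with INTS8 (37%, opposite), RRM2 with AC007240.1 (20.2%, same strand), PRIM1 with AC117378.1 (14.8%, same) and CCND1 with LTO1 (10.3%, opposite). INTS8, which had more reads than CCNE2, was at 31.6 ± 9.2 CPM in siCPT2 and 39.5 ± 4.18 CPM in NC (SD, n = 3 each). ENOSF1 was at 102 ± 4.67 CPM in siCPT2 and 102 ± 3.67 CPM in NC.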

How the data were processed

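The members and lists were chosen with earlier results of these data known. Poly(A) RNA was primed with random hexamers, per the labels' protocols. The authors deposited 1 table that holds for each library the unnormalized read count of every gene and values named FPKM per the file headers, whose gene models are not stated. It also holds a p-value and a log2 fold change of the authors, per the file headers. The submitters' processing notes name GRCh38, HISAT2, TopHat2, Bowtie2, StringTie, DESeq2 and edgeR, without roles. After 17 lines without a gene were left out, 24154 genes remained, of which 4180 new loci without a symbol stayed in library sizes and tests.

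Counts were tested over the whole table in R 4.3.3 with edgeR 4.0.16 (filterByExpr, 15302 genes kept, TMM factors, robust quasi-likelihood F-test) and adjusted by Benjamini-Hochberg at 0.05. CPM use TMM-scaled library sizes. Fold changes are siCPT2 over NC. Coordinates, exons and the GC content and length of the longest transcript came from GENCODE 29 (GRCh38), which held all 39 members. GC and length offsets were loess fits per library (span 0.3) over 13207 genes. The tests were tried on simulated counts without a GC trend or an outlying library, so not under those features of these libraries. The offsets were tried separately on simulated counts with a GC trend put into a single library. Alternatives were DESeq2 1.42.0, limma 3.58.1 (voom, with and without sample quality weights, and trend on FPKM), RLE, upper-quartile and no scaling factors, 2 other filters, the offsets, the replicate number as a block and leaving out each library. Values of single libraries were printed for CPT2, for the 16 members with the smallest p-values and for at least 1 member of each role, and 3 genes with the smallest p-values were named in each other list. Values of CCND1, E2F8, MCM2 and PCNA by library and the genes of the FPKM ratios were picked after their values were seen. Precision rests on 28353790 to 29449380 counts per library and 3 libraries a group.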

Additional observations from a re-analysis of the deposited data

How the results depend on the processing

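Of 39 members, 16 kept the sign of their log2 fold change under all 20 alternatives (CDT1, GINS2, MCM5, MCM3, CDC45, E2F2, CCNE1, TYMS and CHAF1B higher, MCM2, MCM4, MCM6, POLA1, CCND1, CCNE2 and CDK2 lower), and 23 reversed under at least 1. The cause of these reversals was not tested. Called members numbered 0, but 1 with the replicate block (CDT1, adjusted p 0.0499, edgeR), 1 with offsets and block (GINS2, adjusted p 0.0227, edgeR) and 6 with sample quality weights, in fits that called 4.14%, 4.48% and 16.5% of all genes. Whether the numbers pair the libraries was not settled. Deviations of same-numbered libraries correlated at 0.25, 0.363 and 0.00651, the highest value for each siCPT2 library. For siCPT2 replicate 3 all values were small (-0.00994 to 0.00651), and NC replicate 3 correlated best with siCPT2 replicate 1 (0.0911). Members at an unadjusted p under 0.05 numbered 3, against 0 with library size alone (13.2% of all genes), 9 or 23.1% with the replicate block (30.6%), 7 or 17.9% with offsets and block (22.7%), 1 with offsets without siCPT2 replicate 1 (8.43%), 1 on log2(FPKM + 1) (14.9%) and on log2(FPKM + 0.1) (13.4%), and 14 or 35.9% with quality weights (37.4%). Leaving out 1 library gave 0 (without NC replicate 2) to 14 (without siCPT2 replicate 2), with 1 without NC replicate 3. The median of the members, -0.026, was -0.16 with library size alone (all genes -0.129), -0.19 on log2(FPKM + 1) (all genes -0.10) and -0.22 on log2(FPKM + 0.1) (all genes -0.121). CPT2 was at 0.029 with the offsets, -0.25 with the offsets without siCPT2 replicate 1 and -0.50 with quality weights (adjusted p 0.0313, limma-voom).

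Signs reversed as follows, in log2 fold changes. With the offsets: E2F1 -0.09, CCND3 -0.042, CDK4 -0.08, CDC6 0.0071, MCM7 -0.02, MCM10 0.17, GINS1 0.048, POLD1 -0.091, FEN1 -0.033, TK1 -0.048 and CHAF1A -0.033. With offsets and replicate block: E2F1 -0.091, CCND3 -0.046, CDK4 -0.083, CDC6 0.0088, MCM7 -0.022, MCM10 0.16, GINS1 0.036, POLD1 -0.093, FEN1 -0.037, TK1 -0.05 and CHAF1A -0.037. With offsets and without siCPT2 replicate 1: E2F1 -0.13, E2F8 0.062, CDK4 -0.0038, CDC6 0.035, MCM10 0.10, POLD1 -0.03, PCNA 0.022, RFC3 0.0029, FEN1 -0.025, RRM1 0.011, RRM2 0.047 and TK1 -0.012. With quality weights: PRIM1 0.0075, POLE2 -0.17, PCNA 0.095, RFC4 0.13, UHRF1 0.068, SLBP 0.023 and UNG 0.041. CDK4 was at -0.022 with library size alone and -0.026 on either FPKM scale, and LIG1 at -0.0076 and -0.008 on the FPKM scales with pseudocounts of 1 and 0.1. POLE2, at 0.0054, was at -0.13 with library size alone, -0.086 and -0.10 on those FPKM scales, -0.001 in DESeq2, -0.013 in limma-voom, -0.0011 with RLE factors, -0.0077 with no filter and -0.013 with the block. Leaving out 1 library gave -0.19 to 0.10 for POLE2, -0.25 to 0.10 for PCNA and -0.14 to 0.033 for RFC4. Over the 20 alternatives, adjusted p ran from 0.0227 to 0.772 for GINS2, 0.0402 to 0.772 for CDT1, 0.0291 to 0.986 for TK1, 0.0589 to 0.836 for POLA1, 0.145 to 0.898 for CHAF1B and 0.0313 to 0.991 for CPT2 (edgeR, DESeq2 or limma). Members had at least 62 counts in each library.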

Other observations

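CDC6 was the 1 member whose deposited FPKM and counts differed by over 0.2 on the log2 scale from the median gene, for which log2 FPKM lay 0.13 below log2 CPM in the difference of siCPT2 and NC. Its FPKM were 26.3, 39.9 and 36.7 in siCPT2 replicates 1, 2 and 3, against 48.2, 52 and 49.9 in NC replicates 1, 2 and 3, a log2 difference of -0.57, where CPM gave -0.24. A gap of that size was present for 4.06% of all genes compared. The gene models behind the FPKM values are not stated, and the cause was not tested.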
